A study of Mus musculus with 9 samples.

Results

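miR-221 and miR-222 are a pair of microRNAs (miRNAs) made from neighbouring hairpins on the mouse X chromosome. Each hairpin can yield a mature strand from its 5′ arm (5p) and from its 3′ arm (3p), so the pair has 4 members, mmu-miR-221-3p, mmu-miR-221-5p, mmu-miR-222-3p and mmu-miR-222-5p, written here without the species prefix. They were taken by name from the 1966 mature miRNAs in the count table by a rule that uses no measured value, though the pair was proposed with earlier results of these data known. The study asked how loss of the RNA-binding proteins MBNL1 and MBNL2 affects the miRNAs of skeletal muscle, and sequenced small RNA from the quadriceps of mice labelled as 90 days old. There were 3 libraries in each of 3 groups. The WT mice were C57BL/6J with intact genes (Mbnl1+/+ Mbnl2+/+). The Mbnl1KO mice were C57BL/6J and homozygous for the Mbnl1 {delta}E3 allele, with Mbnl2+/+. The Mbnl2KO mice were Mbnl1+/+ and carried the {delta}E2/{delta}E2, {delta}E2/{delta}E3 and {delta}E2/{delta}E4 genotypes at Mbnl2 in libraries 1, 2 and 3, by their labels, whereas the text of the study names the first of these alone. Their labelled background was B6.C-Tg(CMV-cre)1Cgn/J, a strain that expresses Cre broadly, so that strain and loss of Mbnl2 cannot be told apart in their comparisons with WT and with Mbnl1KO. No library was pooled by its labels, and whole muscle was extracted without sorting of cells. Small RNA counts do not include the Mbnl1 and Mbnl2 mRNAs, and the genotypes were not checked from these data. The labels give no sex for the mice, so that a difference in sex between groups could not be examined for these X-linked hairpins.

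A miRNA guides Argonaute proteins to messenger RNAs that pair with its seed, the bases 2 to 8 from its 5′ end, and lowers their output. miR-221 and miR-222 share a seed and are known for holding down the cyclin-dependent kinase inhibitors p27 (Cdkn1b) and p57 (Cdkn1c), and so for favouring cell division. In the myogenic lineage they are abundant in dividing myoblasts and decline as these fuse and differentiate, and they are also well known in endothelial and smooth muscle cells, where they target the receptor Kit.

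The mature sequences of 3 of the 4 members were found in the RefSeq table (GRCm38.p6). They are shown because the shared seed, in capitals, is what makes miR-221-3p and miR-222-3p a pair, while the 5p strand of miR-221 has another seed.
miR-221-3p: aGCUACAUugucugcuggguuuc
miR-222-3p: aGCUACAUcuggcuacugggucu
miR-221-5p: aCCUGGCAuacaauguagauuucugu
miR-1928: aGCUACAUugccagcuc
miR-221-3p and miR-222-3p were identical at the first 8 positions and at 3 of the 15 positions after them, counted without gaps. miR-1928 was the only other mature miRNA of the RefSeq table that carried the seed GCUACAU, and it was listed at 0 in all 9 libraries. A 0 in this table does not show absence, and the seeds of listed miRNAs without a RefSeq entry were not compared. miR-222-5p is followed by name.

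On GRCm39 with the GENCODE annotation, Mir221 lies on the minus strand at chrX:19012533-19012627 and Mir222 at chrX:19013132-19013210, with 504 bases between the hairpins. No other annotated miRNA gene lies within 50 kb. Both hairpins fall inside Gm26652, a long non-coding RNA gene on the same strand with 38 annotated transcripts. Mir221 is spanned by 12 of them, in an intron of 11 and overlapping an exon of 1, and Mir222 by 11, in an intron of every one.

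MBNL proteins bind RNA at YGCY tetramers, which were searched here on the hairpin strand, overlaps allowed, as UGCU with its form UGCC, and as CGCU with its form CGCC. The stretch between the arms of the Mir221 hairpin, where a binding protein could meet the Dicer substrate, held none of these tetramers. It is shown whole.
Mir221 loop: guuuguuaggcaac
Among 306 mouse hairpins of the same table with a stretch within 2 bases of that length, 19.6% held at least 1 tetramer. The whole Mir221 hairpin of 95 bases held 1 match, and 78.1% of 114 hairpins within 5 bases of its length held at least 1. The Mir222 hairpin of 79 bases held 0, against 71.6% of 225 hairpins with at least 1. These matches describe letters only.

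The seed pairs with ATGTAGC in a target. Those letters were searched on the transcript strand in the 3′ UTRs of the canonical GENCODE transcripts of the 3 known targets, and each match, in capitals, is shown with up to 14 bases before it and 1 base after it.
Cdkn1b at chr6:134901394-134901400, plus strand: tctaaaagcattggATGTAGCa
Cdkn1c at chr7:143012663-143012669, minus strand: gggacctttcgttcATGTAGCa
Kit at chr5:75815652-75815658, plus strand: atgatgggagatatATGTAGCa
Kit at chr5:75817183-75817189, plus strand: ttgtaaatattgaaATGTAGCa
All 4 matches were followed by an A, the form called an 8mer site. Of 20702 canonical 3′ UTRs, 10.5% held the letters. The share depends on UTR length. Among UTRs within 10 percent of the length of the target it was 23.1% for Cdkn1b (3439 bases), 4.93% for Cdkn1c (695 bases) and 15.9% for Kit (2199 bases). The levels of these mRNAs were not analysed here.

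The libraries held 4761271 to 6277018 counted reads, and 909 of the 1966 miRNAs had a count in at least 1 of them. miR-1a-3p, the most abundant miRNA of striated muscle, took 61.4% to 73.7% of the reads. Since a miRNA of that size moves the share of all others, counts were scaled by TMM, a trimmed mean of ratios between libraries. The scaling factors ran from 0.826 to 1.27, and the highest belonged to Mbnl1KO library 1, which also had the lowest share of miR-1a-3p. The study calls the WT mice littermates, but the labels tie no library to a litter or to a mouse of its own, and p-values measure the spread between these libraries, which may be technical in part.

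miR-221-3p had the most reads of the 4 members in every library other than Mbnl2KO 2 and 3, and ranked 87 to 89 of 909 by group mean. In WT its TMM-normalized counts were 516.6, 530.2 and 620.8. In Mbnl1KO they were 788.4, 770.4 and 616.6, and in Mbnl2KO 694.1, 597.1 and 516.4. The 3 ranges overlapped, and a pair of Mbnl1KO libraries lay above all others while the third was level with the highest WT library. Group means were 555.8 ± 56.6 in WT, 725.1 ± 94.4 in Mbnl1KO and 602.5 ± 89.0 in Mbnl2KO (SD, n = 3).

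miR-222-3p, the partner with the same seed, ranked 90 to 103 by group mean. Its normalized counts were 455.9, 466.7 and 433.7 in WT, 383.1, 499.3 and 439.6 in Mbnl1KO, and 511.4, 609.4 and 554.3 in Mbnl2KO. All 3 Mbnl2KO libraries lay above all 6 others, while the Mbnl1KO libraries fell on both sides of WT. Of all miRNAs tested, 14.0% were higher in all 3 Mbnl2KO libraries than in any WT library. Against Mbnl1KO that share was 20.1%. The share that separated from both groups was not counted. The means were 452.1 ± 16.8, 440.7 ± 58.1 and 558.3 ± 49.1 in WT, Mbnl1KO and Mbnl2KO (SD, n = 3). The order of group means thus differed between the partners, with miR-221-3p highest in Mbnl1KO and miR-222-3p highest in Mbnl2KO.

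miR-221-5p, the strand paired with miR-221-3p in the hairpin, was far less abundant. Its normalized counts were 37.4, 25.98 and 33.46 in WT, 27.58, 37.53 and 32.82 in Mbnl1KO, and 48.71, 74.17 and 41.67 in Mbnl2KO. Like miR-222-3p, it was higher in every Mbnl2KO library than in any other, a pattern whose share among all miRNAs was not counted. The highest value, in Mbnl2KO library 2, rested on 79 reads. Its means were 32.28 ± 5.80, 32.64 ± 4.98 and 54.85 ± 17.1 in WT, Mbnl1KO and Mbnl2KO (SD, n = 3). Counting alone would give a coefficient of variation of 18.2% at its mean WT count, against a measured 18.0%, so its WT spread was no larger than counting error. In Mbnl1KO the measured value was 15.2% against 16.5% from counting. In Mbnl2KO it was 31.2% against 13.7%, a spread above counting error.

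miR-222-5p was near the limit of detection. It had 4, 4 and 6 reads in WT, 8, 10 and 9 in Mbnl1KO, and 9, 14 and 4 in Mbnl2KO. Its exact 95% Poisson intervals, which cover counting error only, ran from 1.09 to 10.2 for 4 reads and from 7.65 to 23.5 for 14 reads. Its mean normalized count over the 6 libraries was under the minimum of 10 in every comparison, and it was tested only in alternatives. Without the filter its log2 fold changes were 0.60 in Mbnl1KO against WT (edgeR, adjusted p = 0.587), 0.86 in Mbnl2KO against WT (edgeR, adjusted p = 0.63) and -0.25 in Mbnl1KO against Mbnl2KO (edgeR, adjusted p = 0.786). Without Mbnl2KO library 3 it passed the filter in the last, at -0.58 (edgeR, adjusted p = 0.451).

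**Figure D1:**
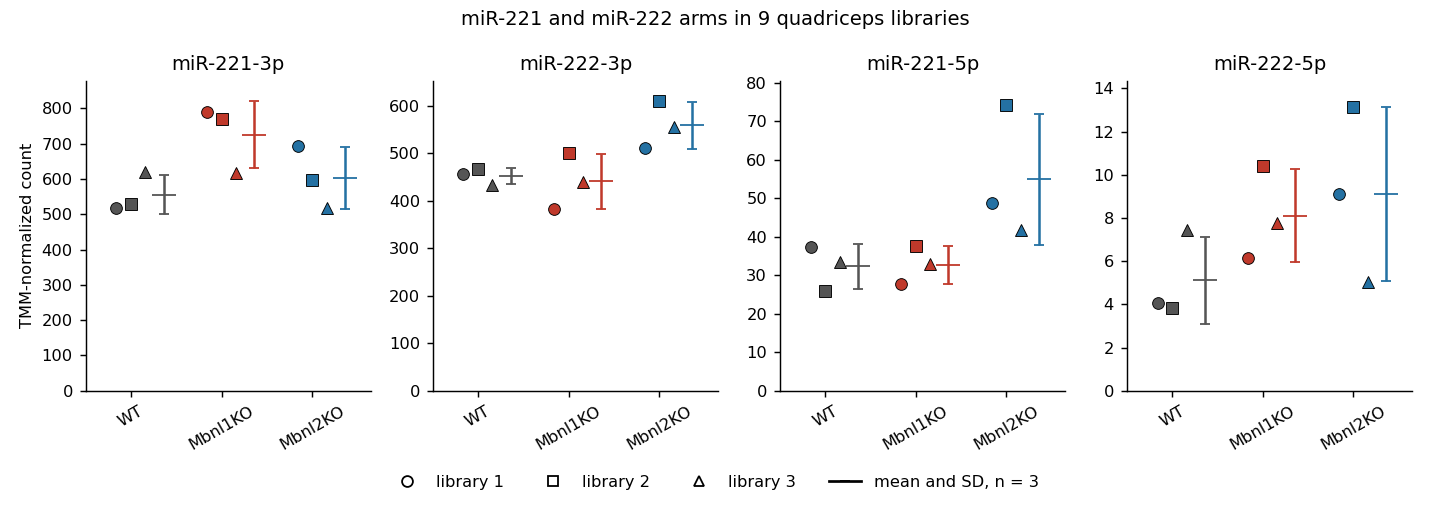
TMM-normalized counts (vertical axis, each from 0) of the 4 members in the 9 libraries, with 1 symbol per library number and the group mean with its SD beside the points. The 3 Mbnl2KO libraries sit above all others for miR-222-3p and miR-221-5p, a pattern whose share among all miRNAs was not counted. The groups overlap for miR-221-3p, whose highest values are the Mbnl1KO libraries at 788.4 and 770.4.

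Loss of Mbnl1 was compared with WT first, since MBNL1 is the main MBNL protein of adult muscle. None of the 3 tested members was called (edgeR quasi-likelihood test, Benjamini-Hochberg adjusted p under 0.05), where 33.1% of the 317 miRNAs tested were called. An unadjusted p under 0.05 was reached by 0 of the 3 in edgeR, against 42.3% of all. DESeq2 also called 0 after adjustment, with an unadjusted p of 0.0473 for miR-221-3p. miR-221-3p was at a log2 fold change of 0.32 ± 0.16 (SE; edgeR, adjusted p = 0.122), with a 95% interval from -0.0046 to 0.64, and its fold of 1.25 was larger in size than those of 39.1% of the miRNAs tested. miR-222-3p was at -0.11 ± 0.17 (edgeR, adjusted p = 0.665; from -0.19 to -0.0018 with 1 library left out) and miR-221-5p at -0.06 ± 0.32 (edgeR, adjusted p = 0.895). The groups overlapped for all 3, whereas they did not overlap for 42.6% of all miRNAs tested. The median size of the log2 fold change over all miRNAs tested was 0.42, so the members lay below the middle of the distribution. The interval for miR-222-3p, from -0.44 to 0.23, still allows changes in either direction.

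The value of miR-221-3p in Mbnl1KO depended on the scaling. With library totals in place of TMM, its log2 fold change was 0.62 (edgeR, adjusted p = 0.00883), and it was called. The same scaling moved the median of all miRNAs tested from -0.01 to 0.30, and the share of called miRNAs that were higher from 57.1% to 90.1%. Relative to that median, miR-221-3p stood at 0.33 under either scaling. With library totals miR-222-3p was at 0.18 and miR-221-5p at 0.24, the opposite sign to the values with TMM, and relative to the median they were at -0.11 and -0.06.

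In Mbnl2KO against WT, miR-222-3p and miR-221-5p had the higher values and neither passed the test. The count of members called was 0 of 3 (edgeR, Benjamini-Hochberg), where 5.80% of 293 miRNAs were called, and DESeq2 also called 0. Unadjusted p values under 0.05 were given by edgeR for 2 of the 3, against 18.1% of all miRNAs tested. miR-222-3p was at a log2 fold change of 0.30 ± 0.14 (SE; edgeR, adjusted p = 0.264), with a 95% interval from 0.01 to 0.59. miR-221-5p was at 0.77 ± 0.29 (edgeR, adjusted p = 0.126), a fold of 1.71 with an interval on the log2 scale from 0.18 to 1.37. That change was larger in size than those of 92.8% of the miRNAs tested. Both were higher in all 3 Mbnl2KO libraries than in any WT library, as were 14.0% of all miRNAs tested. miR-221-3p was at 0.12 ± 0.15 (edgeR, adjusted p = 0.703) with overlapping groups, and at -0.036 without Mbnl2KO library 1 and 0.21 without Mbnl2KO library 3. No alternative setting called any of the 3 in this comparison.

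Set against each other, the knockouts differed in 1 of the 3 members. miR-221-5p was lower in Mbnl1KO than in Mbnl2KO, at a log2 fold change of -0.82 ± 0.29 (SE; edgeR, adjusted p = 0.0449), a fold of 0.566 with a 95% interval on the log2 scale from -1.43 to -0.21. Of the 309 miRNAs tested, 26.9% were called, and 11.7% were called as lower in Mbnl1KO. The share of members called was therefore near that of all miRNAs. miR-222-3p was at -0.39 ± 0.16 (edgeR, adjusted p = 0.0834), and at -0.12 with library totals (edgeR, adjusted p = 0.783), and did not pass, though all its Mbnl1KO libraries lay below all Mbnl2KO libraries, as those of miR-221-5p did. Groups that did not overlap in this direction were found for 20.1% of all miRNAs tested. miR-221-3p was at 0.22 ± 0.16 (edgeR, adjusted p = 0.311), with the opposite sign, and its groups overlapped. That value was 0.06 without Mbnl2KO library 3 and 0.51 with library totals.

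The call for miR-221-5p was close to the threshold. It was kept in 4 of 14 alternatives that tested it, and its log2 fold change was negative in all of them, from -1.02 to -0.52. The adjusted p was 0.0662 with DESeq2 and 0.198 with library totals (edgeR). Without Mbnl2KO library 2, which held the 79 reads, the log2 fold change was -0.52 (edgeR, adjusted p = 0.225). The call was also lost without Mbnl2KO library 1 (edgeR, adjusted p = 0.0525), without Mbnl1KO library 1 (edgeR, adjusted p = 0.132) and without Mbnl1KO library 3 (edgeR, adjusted p = 0.11). miR-222-3p passed in 1 alternative, without Mbnl1KO library 2 (log2 fold change -0.53, edgeR, adjusted p = 0.0235). Strain differed between the knockouts in the same way as between Mbnl2KO and WT. This comparison shares its knockout libraries with the comparisons against WT, and its values are no separate support for them.

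**Figure D2:**
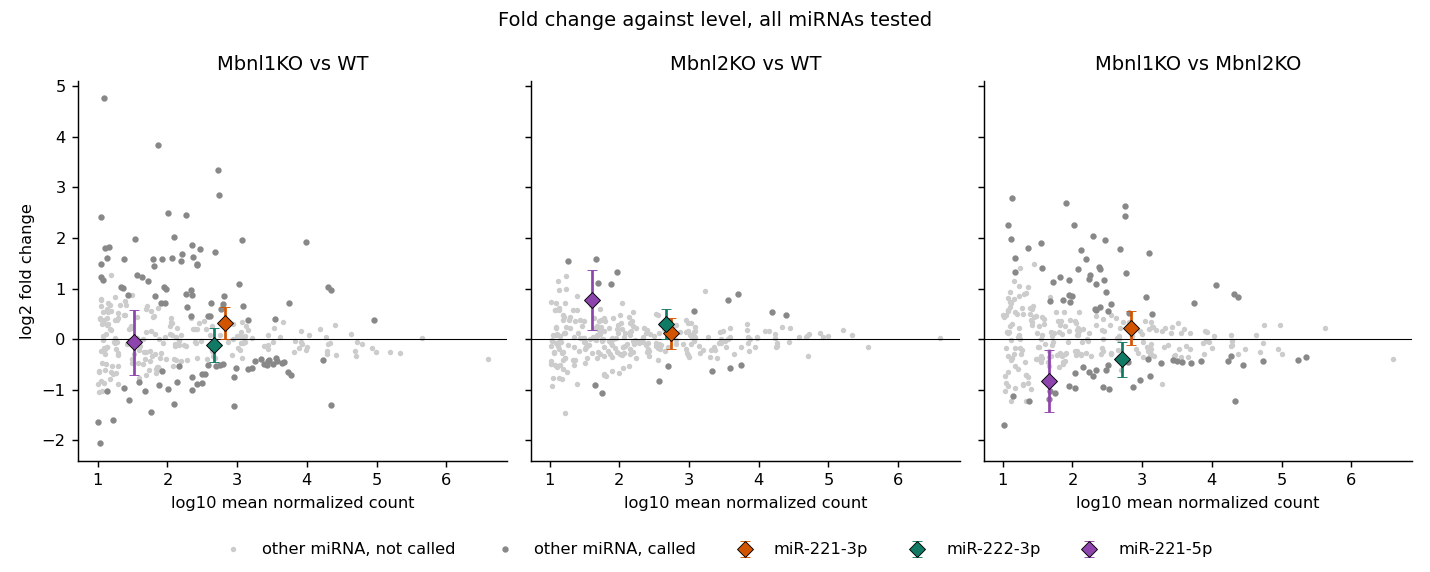
Log2 fold change (vertical axis) against log10 mean normalized count (horizontal axis) for every miRNA tested in each comparison; members are diamonds with 95% intervals, and other miRNAs are dots, darker where called. miR-221-3p stands at 0.32 in Mbnl1KO and miR-222-3p at 0.30 in Mbnl2KO against WT, neither called, and miR-221-5p stands at 0.77 in Mbnl2KO against WT and at -0.82 in Mbnl1KO against Mbnl2KO.

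**Figure D3:**
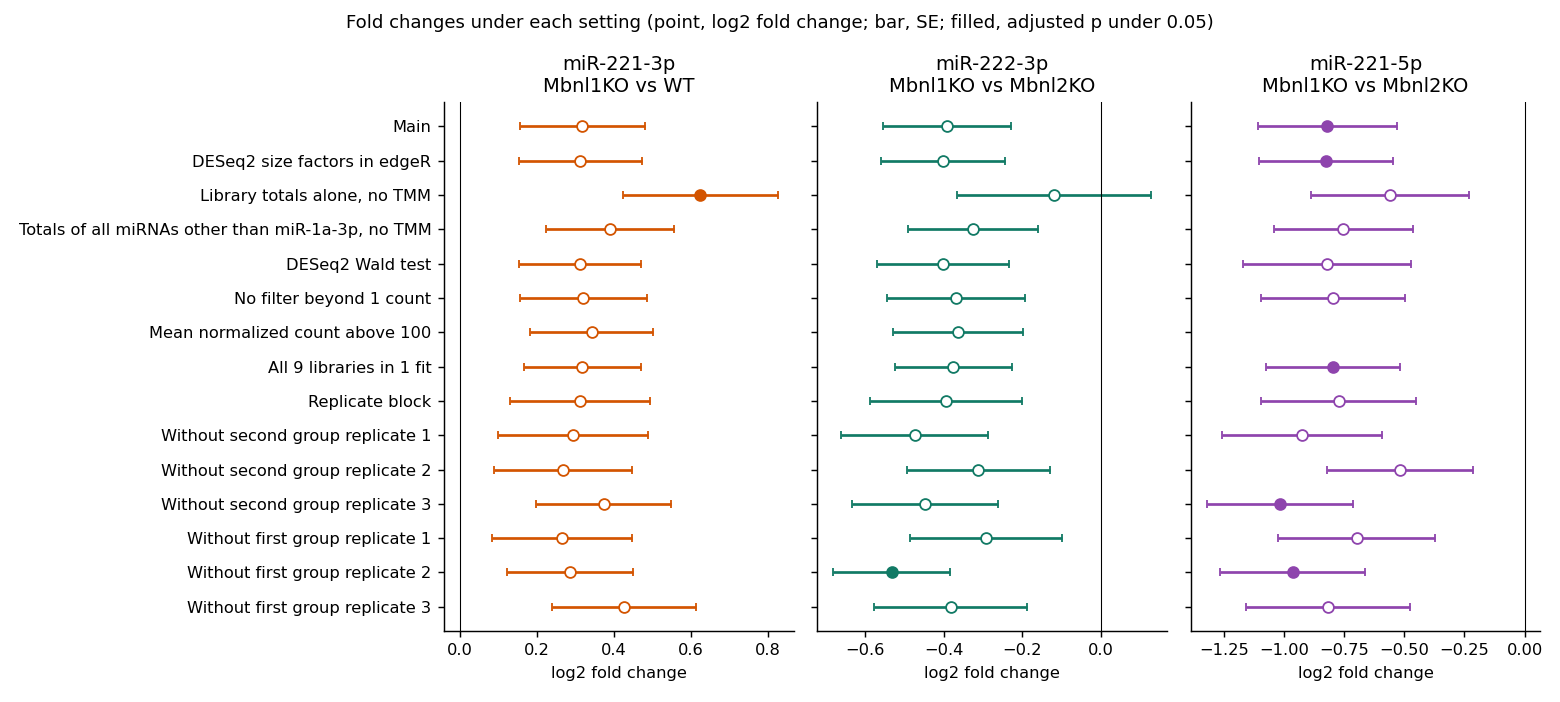
Log2 fold change with its SE (horizontal axis) under each setting for miR-221-3p in Mbnl1KO against WT and for miR-222-3p and miR-221-5p in Mbnl1KO against Mbnl2KO, where the second group is WT in the first panel and Mbnl2KO in the others; filled points have an adjusted p under 0.05. miR-221-3p is filled only with library totals, miR-222-3p only without Mbnl1KO library 2, and every point of miR-221-5p lies between -1.02 and -0.52.

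A ratio of 2 members within a library needs no scaling between libraries. The log2 ratio of miR-221-3p to miR-222-3p counts, with 0.5 added to each, was 0.18, 0.18 and 0.52 in WT, 1.04, 0.63 and 0.49 in Mbnl1KO, and 0.44, -0.03 and -0.10 in Mbnl2KO. All 3 Mbnl1KO libraries had a higher ratio than all 3 Mbnl2KO libraries, and the WT libraries overlapped with both. The ratio means were 0.29 ± 0.19, 0.72 ± 0.29 and 0.10 ± 0.29 in WT, Mbnl1KO and Mbnl2KO (SD, n = 3). Over the 3 groups a two-sided exact permutation test gave p = 0.0679, and between the knockouts it gave p = 0.1 for a difference of 0.61, the smallest p that 3 against 3 allows. Both were 0.267 after adjustment over the 12 ratio tests. Efficiency of adapter ligation differs between sequences, so a ratio above 0 does not show that more miR-221-3p molecules than miR-222-3p molecules were present, and only its differences between groups are read here.

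Strand use of the Mir221 hairpin followed a similar order. The log2 ratio of miR-221-3p to miR-221-5p was 3.77, 4.33 and 4.19 in WT, 4.82, 4.34 and 4.21 in Mbnl1KO, and 3.82, 3.00 and 3.61 in Mbnl2KO. Every Mbnl1KO library was above every Mbnl2KO library, and a single WT library, at 3.77, lay inside the Mbnl2KO range. In linear terms the mean ratios came to 17.1, 22.0 and 11.1 reads of the 3p strand per read of the 5p strand. The exact permutation test over the 3 groups gave p = 0.025, and 0.267 after Benjamini-Hochberg adjustment over the 12 ratio tests. The difference did not pass, though by the limit on these tests given above few outcomes could. Between the knockouts the difference of 0.98 had an exact permutation p = 0.1, adjusted 0.267. Without Mbnl1KO library 1 the exact permutation p over the 3 groups was 0.104, the highest of the values with 1 library left out.

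For Mir222 the ratio of the 3p to the 5p strand could only be measured coarsely, as the 5p strand had 4 to 14 reads. On the log2 scale it was 6.65, 6.75 and 5.75 in WT, 5.88, 5.51 and 5.75 in Mbnl1KO, and 5.73, 5.49 and 6.61 in Mbnl2KO. The 3 groups overlapped (exact permutation p = 0.304, adjusted 0.364, and from 0.0929 to 0.529 unadjusted with 1 library left out). In every library more reads were counted for the 3p strand than for the 5p strand of both hairpins.

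**Figure D4:**
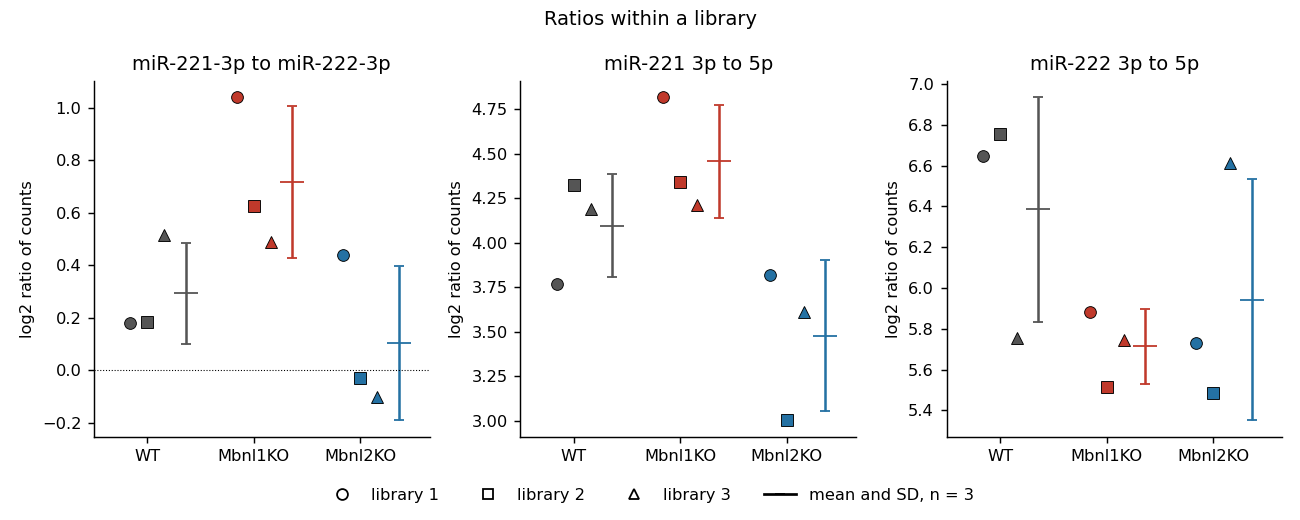
Log2 ratio of counts within each library (vertical axis) for miR-221-3p to miR-222-3p and for the 3p to the 5p strand of each hairpin, by group, with 1 symbol per library number and the group mean with its SD. In the first and second panels the 3 Mbnl1KO points lie above the 3 Mbnl2KO points, from 0.49 against 0.44 and from 4.21 against 3.82, and in the third the groups overlap.

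The reads of miR-221-3p and miR-222-3p, which share a seed, were also added up. Such a sum counts reads and not molecules, by the limit on ligation given above. Their summed normalized counts were 972.5, 996.9 and 1054 in WT, 1171, 1270 and 1056 in Mbnl1KO, and 1205, 1207 and 1071 in Mbnl2KO. The lowest knockout library, at 1056, was level with the highest WT library, at 1054, well within counting error. Means were 1008 ± 42.1, 1166 ± 107 and 1161 ± 78.1 (SD, n = 3), and no test is given for a sum over chosen members. miR-221-3p was 53.1%, 53.2% and 58.9% of it in WT, 67.3%, 60.7% and 58.4% in Mbnl1KO, and 57.6%, 49.5% and 48.2% in Mbnl2KO. The Mbnl1KO and Mbnl2KO shares did not overlap with each other, and both overlapped with those of WT. This restates the ratio of miR-221-3p to miR-222-3p given above, which uses the same counts. At 1529 reads, the exact 95% binomial interval of the highest share was 64.9% to 69.6%, and that of the lowest, on 848 reads, was 44.8% to 51.7%. These intervals cover counting error only and not the spread between libraries.

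Across the 9 libraries the partners did not vary together. Pearson's r of their log2 normalized values was -0.33, while it was 0.84 between miR-222-3p and miR-221-5p and -0.07 between miR-221-3p and miR-221-5p. These are descriptions over 9 libraries of 3 groups that share 1 scaling, and the groups contribute to them.

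Among the 163 miRNAs with a mean normalized count above 100, those most like miR-221-3p by Pearson's r over the 9 libraries were miR-27a-5p (0.87), miR-322-5p (0.87), miR-503-5p (0.82), miR-23a-3p (0.82) and miR-15a-5p (0.77). miR-27a-5p and miR-23a-3p come from a common cluster, and miR-322 and miR-503 from another on the X chromosome that is known for driving myoblasts out of the cell cycle. Of these, miR-322-5p and miR-23a-3p rose in Mbnl1KO against WT, by log2 fold changes of 0.69 (edgeR, adjusted p = 0.000367) and 0.98 (edgeR, adjusted p = 1.64e-08). Mean normalized counts of miR-322-5p were 449.1 ± 53.6 in WT, 758.2 ± 34.0 in Mbnl1KO and 511.1 ± 64.5 in Mbnl2KO (SD, n = 3). These miRNAs were chosen for following miR-221-3p over the same libraries, so that their direction is fixed in part by the choice. Of all miRNAs tested, 18.9% were called as higher in Mbnl1KO against WT.

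Those most like miR-222-3p were miR-335-5p (0.91), miR-140-3p (0.82), miR-199b-5p (0.80), miR-199a-5p (0.77) and miR-676-5p (0.74). miR-140 and the miR-199 family are known from cartilage and connective tissue cells, and miR-335 is made from an intron of the imprinted gene Mest. miR-335-5p rose in Mbnl2KO against WT, by a log2 fold change of 0.56 (edgeR, adjusted p = 0.0208), from 1018 ± 65.8 to 1508 ± 254 normalized counts (SD, n = 3). Between the knockouts, miR-335-5p was lower in Mbnl1KO at -0.72 (edgeR, adjusted p = 0.0143), as were miR-199b-5p at -0.65 (edgeR, adjusted p = 0.0291) and miR-676-5p at -0.68 (edgeR, adjusted p = 0.024), where 11.7% of all miRNAs tested were called as lower. Here too the choice by likeness fixes the direction in part. No miRNA stood among the 5 most alike for both partners.

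Other miRNAs of myoblast growth were taken as a list of 12 that are known from proliferating or undifferentiated myoblasts. In Mbnl1KO against WT, 2 of the 12 were called as higher and 2 as lower (edgeR), where 18.9% and 14.2% of all miRNAs tested were, with a median log2 fold change of -0.05 beside -0.01 for all miRNAs tested. Those that rose were miR-23a-3p and miR-155-5p (0.86, edgeR, adjusted p = 1.02e-05), and those that fell were miR-125b-5p (-0.42, edgeR, adjusted p = 0.0178) and miR-92a-3p (-0.64, edgeR, adjusted p = 0.000169). Between the knockouts the counts were also 2 and 2, where 15.2% and 11.7% of all were called, with a median of -0.16 beside 0.07. In Mbnl2KO against WT none of the 12 was called by edgeR, where 5.80% of all miRNAs tested were, with a median of 0.08 beside 0.02.

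The opposing programme was described by 18 miRNAs that promote muscle differentiation, of which 15 were tested. The other 3, miR-24-3p, miR-486a-5p and miR-486b-5p, were listed at 0 in all libraries, although they are known as abundant miRNAs of muscle, and such a 0 is not read as absence. In Mbnl1KO against WT, 4 were called as higher and 1 as lower (edgeR), where 18.9% and 14.2% of all miRNAs tested were. They were miR-206-3p, the miRNA of regenerating fibres, at a log2 fold change of 1.93 (edgeR, adjusted p = 4.37e-21), miR-27b-3p at 0.72 (edgeR, adjusted p = 1.82e-05), miR-133b-3p at 0.71 (edgeR, adjusted p = 0.0172) and miR-322-5p, while miR-378a-3p was lower at -1.30 (edgeR, adjusted p = 2.36e-12). The median of the 15 was 0.14 beside -0.01 for all miRNAs tested. In Mbnl2KO, miR-206-3p alone was called, at 0.89 (edgeR, adjusted p = 0.00076), and the median was -0.01 beside 0.02. In that comparison 3.41% of all miRNAs tested were called as higher and 2.39% as lower. With Mbnl1KO set against Mbnl2KO, 4 of the 15 were called as higher and 2 as lower, where 15.2% and 11.7% of all miRNAs tested were, with a median of 0.22 beside 0.07 for all miRNAs tested, and miR-26a-5p, at -0.40 (edgeR, adjusted p = 0.0143), was lower in Mbnl1KO along with miR-378a-3p.

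Since whole muscle was used, fewer cells of a type and less of a miRNA per cell cannot be told apart. Of 11 miRNAs known from vessel wall and connective tissue, in which the pair is also expressed, 9 were tested. miR-126a-3p and miR-126a-5p, which define endothelium, were listed at 0 in every library. The summed normalized counts of the 9 ran from 95910 to 110900 in WT, from 98550 to 123700 in Mbnl1KO and from 100400 to 110800 in Mbnl2KO. In Mbnl2KO against WT, 1 of the 9 was called, where 3.41% of all miRNAs tested were called as higher. It was miR-143-3p, which was higher at a log2 fold change of 0.48 (edgeR, adjusted p = 0.0169). The other 8 were not called. They ran from -0.34 for miR-21a-5p (edgeR, adjusted p = 0.123) to 0.95 for miR-140-3p (edgeR, adjusted p = 0.281). Among them miR-145a-5p was at 0.04 (edgeR, adjusted p = 0.905). The median of the list was 0.16 beside 0.02. In Mbnl1KO against Mbnl2KO, miR-199a-3p (-0.45, edgeR, adjusted p = 0.0274) and miR-199b-5p were called as lower, where 11.7% of all were, and the median was -0.19 beside 0.07. In Mbnl1KO against WT, miR-199a-3p alone was called, at -0.43 (edgeR, adjusted p = 0.0139), where 14.2% of all were called as lower. The part of these cells in the values of the pair was not tested.

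Of 8 miRNAs of immune and blood cells, 6 were tested and miR-142a-3p was listed at 0 in every library. Sums were taken over the 7 of the list that had a count, tested or not. They ran from 2691 to 3150 in WT, from 2771 to 3412 in Mbnl1KO and from 2937 to 3169 in Mbnl2KO. In Mbnl1KO against WT, 1 was called as higher, miR-155-5p, where 18.9% of all miRNAs tested were, and 3 as lower, where 14.2% were. The last were miR-223-3p of granulocytes at -0.87 (edgeR, adjusted p = 3.74e-05), miR-142a-5p at -0.84 (edgeR, adjusted p = 0.0295) and miR-146a-5p at -0.49 (edgeR, adjusted p = 0.0136). The same numbers, 1 and 3, were called in Mbnl1KO against Mbnl2KO, where 15.2% and 11.7% of all were, and none of the 6 was called by edgeR in Mbnl2KO against WT, where 5.80% of all were. The median of the 6 was -0.25 beside -0.01 for all miRNAs tested in Mbnl1KO against WT, -0.41 beside 0.07 between the knockouts, and 0.05 beside 0.02 in Mbnl2KO against WT. The part of these cells in the values of the pair was not tested either.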

How the data were processed

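Small RNA of 9 quadriceps libraries, 3 per group by their labels, was analysed from the table of raw counts per mature miRNA that the authors deposited, with no normalization. By the study's methods, adapters were clipped, identical reads collapsed, and reads matched to miRBase hairpins in sense orientation without mismatches. Reads that fell within the annotated bounds of a mature miRNA, a few bases allowed, were added up. Whether this counting made the deposited table is not given in the sources used here. How reads with edited or added bases were treated in it is therefore unknown.

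Every comparison used only its own 6 libraries. The test was edgeR's quasi-likelihood F test with robust dispersion, TMM scaling recomputed after filtering, and Benjamini-Hochberg adjustment. miRNAs with a mean normalized count above 10 were tested, and an adjusted p under 0.05 was called. Levels were scaled over all 9 libraries together. Ratios within a library, with 0.5 added to each count, were compared by two-sided exact permutation tests over libraries, adjusted over 12 tests. The members, the lists and the tests were chosen with earlier results of these data known. Named miRNAs were the 4 members, the 5 most like each 3p member by Pearson's r (mean above 100), those with the same seed, and the list members that were called. miR-1a-3p, miR-21a-5p, miR-145a-5p and the list members listed at 0 were named besides, after their values were seen. Fits ran in R 4.3.3 (edgeR 4.0.16 and, as an alternative, DESeq2 1.42.0), and ratios in Python 3.11.15 with SciPy 1.17.1. Both were tested on simulated data. Libraries of a group differed by far more than sampling noise (chi-square per degree of freedom 38.8 to 272). Precursors and UTRs were placed on GRCm39 with GENCODE, and sequences of miRNAs came from RefSeq (GRCm38.p6), where 1675 of the 1966 names matched.

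Alternatives to the scaling were the size factors of DESeq2 and library totals, with or without miR-1a-3p. Others were the Wald test of DESeq2, a minimum of 1 count or of a mean of 100, a joint fit of all 9 libraries, a block for the replicate number, omission of each library, and a threshold of 0.01. For ratios they were another added count (0 or 5), each library left out, and differences within each replicate number.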

Additional observations from a re-analysis of the deposited data

How the results depend on the processing

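Log2 fold changes of the members kept their sign under every setting run, with these exceptions. In Mbnl1KO against WT, miR-222-3p was at 0.18 with library totals, and miR-221-5p was at 0.24 with library totals, at 0.010 with totals without miR-1a-3p. With 1 library left out miR-221-5p ran from -0.22 to 0.10, with 0.10 and 0.07 without WT library 1 and without Mbnl1KO library 1. In Mbnl2KO against WT, miR-221-3p was at -0.036 without Mbnl2KO library 1, and ran from there to 0.21 with 1 library left out. None of these values was called.

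The number of members called in Mbnl1KO against WT was 0, and 1 (miR-221-3p) with library totals. In Mbnl1KO against Mbnl2KO it was 1 (miR-221-5p), and 0 with library totals, with totals without miR-1a-3p, with DESeq2's Wald test, without a filter, with a mean above 100 (which leaves miR-221-5p untested), with the replicate block and at a threshold of 0.01. With 1 library left out it ran from 0 to 2. The number of miRNAs called in Mbnl1KO against WT was 105, and 68 with a mean above 100, where fewer were tested. In Mbnl2KO against WT it was 17, and 7 with library totals, 9 with a mean above 100, 11 with all 9 libraries in 1 fit and 6 at a threshold of 0.01, and from 6 to 25 with 1 library left out. In Mbnl1KO against Mbnl2KO it was 83, and 45 at a threshold of 0.01. Of the called miRNAs in Mbnl1KO against Mbnl2KO, 56.6% were higher in Mbnl1KO, against 93.5% with library totals, which moved the median of all from 0.07 to 0.36, and 70.9% with totals without miR-1a-3p. In Mbnl2KO against WT that share was 58.8%, and 71.4% with library totals. Relative to the median of all, miR-221-5p was at -0.89 with TMM and at -0.92 with library totals in the comparison of the knockouts, and miR-222-3p at -0.46 and -0.48. Where no construction is named, the cause was not tested.

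Exact permutation p over the 3 groups ran from 0.0179 to 0.204 for miR-221-3p to miR-222-3p with 1 library left out, with the lowest without Mbnl2KO library 1, and from 0.0286 to 0.104 for the Mir221 strands.

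Replicate numbers did not pair the libraries. Correlations of same-numbered libraries ran from -0.155 to 0.115, and 2 of 9 were highest with their own number. With the replicate number as a block, 92, 21 and 80 miRNAs were called in Mbnl1KO against WT, Mbnl2KO against WT and Mbnl1KO against Mbnl2KO, and miR-221-5p in the last was at -0.77 (edgeR, adjusted p = 0.0635).

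Depth limits the 5p strands most. With 27 to 79 reads for miR-221-5p and 4 to 14 for miR-222-5p, counting error alone was 13.7% to 18.2% and 33.3% to 46.3% of the group mean counts. For the 3p strands it was 3.48% to 4.83%, below the measured spread in every group other than WT for miR-222-3p (3.72%). With 3 libraries a group, 95% intervals of the 3p strands spanned over 0.5 on the log2 scale.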
